A study of Saccharomyces cerevisiae with 12 samples.

Results

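The RNA exosome genes are 10 protein-coding genes of budding yeast that were chosen by symbol, DIS3, RRP6, SKI6, RRP45, RRP43, RRP46, RRP42, RRP4, RRP40 and MTR4, out of 6002 protein-coding genes on the nuclear chromosomes, and all 10 were found in the R64 gene table. RNA polymerase II (Pol II) had been mapped by chromatin immunoprecipitation and sequencing through 3XFLAG-tagged Rpb3, a Pol II subunit. The dbp2∆ strain (MATa dbp2::KanMx6 his3∆1 leu2∆0 met15∆0 ura3∆0) lacks the DEAD-box RNA helicase Dbp2, and the wild-type strain carries the same mating type and auxotrophic deletions with DBP2 present. Both were grown in YP medium with 2% glucose at 30 °C and fixed with 1% formaldehyde. Each strain gave 3 immunoprecipitated and 3 input libraries, 12 in all.

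The deposited values are 1 list of Pol II peaks per strain, which the authors called after pooling the 3 immunoprecipitates and, as background, the 3 inputs. There is therefore no spread between replicates, and no difference between the strains given here has a test. The dbp2∆ list holds 1628 peaks from 4030024 immunoprecipitated fragments and the wild-type list 1642 peaks from 3648848. DBP2 itself was covered by peaks over 0% of its length in dbp2∆ and 100% in the wild type. The lowest fold enrichment of any peak was 1.24 in the dbp2∆ list and 1.25 in the wild-type list, so weaker signal is not in the lists and a gene without a peak is not shown to lack Pol II.

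The RNA exosome is a multi-subunit machine that degrades and trims RNA from its 3′ end. Its barrel is a ring of inactive RNase PH-like subunits under a cap of RNA-binding subunits, through which RNA is threaded to the nuclease Dis3. In the yeast nucleus the second nuclease Rrp6 and the helicase Mtr4 join it, and the complex matures ribosomal, small nuclear and small nucleolar RNAs and destroys cryptic and aberrant transcripts. Every subunit of the core is essential for growth.

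Of the 10 exosome genes, 5 had a Pol II peak in dbp2∆ and 5 in the wild type, with at least 50% of a gene required to lie under peaks. The ring genes SKI6, RRP45 and RRP43 and the helicase gene MTR4 had a peak in both strains. DIS3, which encodes the catalytic nuclease, had a peak in dbp2∆ only, and the ring gene RRP42 in the wild type only. The nuclease gene RRP6, the ring gene RRP46 and the cap genes RRP4 and RRP40 had a peak in neither. Among all protein-coding genes 20.6% had a peak in dbp2∆ and 19.9% in the wild type, 3.7% had one in dbp2∆ only and 3.0% in the wild type only, and 76.4% in neither. A peak touched 8 of the 10 in dbp2∆ and 9 in the wild type, against 42.4% and 38.8% of all protein-coding genes.

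**Figure D1:**
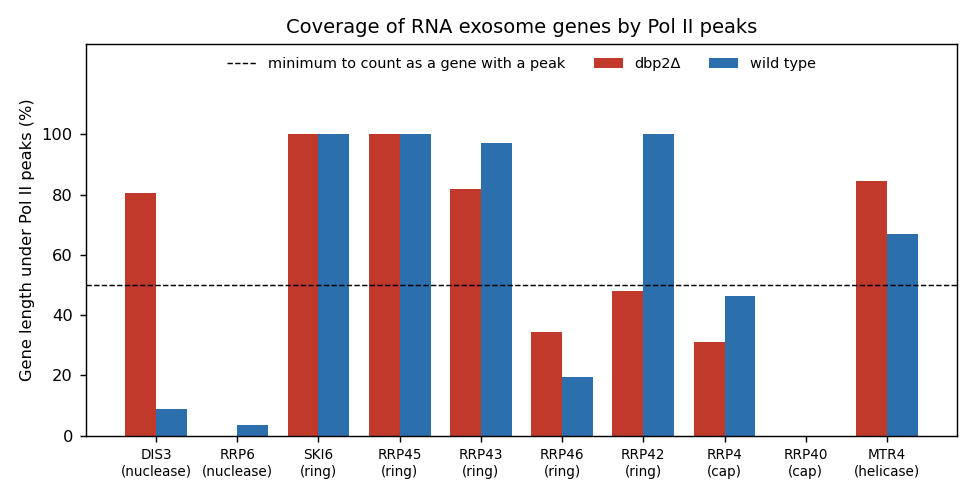
Percent of each gene's length under Pol II peaks (y axis) for the 10 RNA exosome genes (x axis, with the role of the product in brackets), in dbp2∆ (red) and wild type (blue); each bar is 1 value from a list of pooled libraries, and the dashed line marks 50%. DIS3 stands at 80.7% in dbp2∆ and 8.78% in the wild type, RRP42 at 48.1% and 100%, and RRP40 at 0% in both.

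DIS3 (YOL021C, chromosome XV, 282421 to 285426) encodes the subunit that carries the exonuclease and an endonuclease activity of the core exosome. In dbp2∆ a single peak (281931 to 284846, 2916 bp) covered 80.7% of the gene. In the wild type the gene met only a peak of 289 bp (285163 to 285451), which covered 8.78%. These peaks lie at opposite ends of DIS3 and share no base: the dbp2∆ peak began 580 bp inside the gene from its 5′ end and ran 490 bp past its 3′ end, whereas the wild-type peak began 25 bp before the 5′ end and stopped 263 bp into the gene.

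The summit of the dbp2∆ peak over DIS3 lay outside the gene, 290 bp past its 3′ end and 33 bp from SUF17, a tRNA gene transcribed by RNA polymerase III. SUF17 (chromosome XV, 282164 to 282234) was covered over 100% in dbp2∆ and 0% in the wild type. The fold enrichment of this peak, the authors' ratio of immunoprecipitate to local background at the summit, was 2.62, and it was thus read beside SUF17 and not in the DIS3 coding region. The level within DIS3 cannot be told from the list. The wild-type peak had a fold enrichment of 1.32 and ranked 1625 of the 1642 peaks in its list. Its summit held 143 fragments, and the ratio of this pileup to the fold enrichment, an estimate of the local background, was 108 fragments, against 82.6 to 94.5 for the other wild-type peaks over the exosome genes.

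RRP6 (YOR001W, chromosome XV, 326832 to 329033) encodes the nuclease that joins the exosome in the nucleus. It was free of peaks in dbp2∆, where the nearest peak lay 4580 bp away. In the wild type a peak (328959 to 329507, fold enrichment 1.55) touched its last 75 bp, 3.41% of the gene, with the summit 2 bp before the 3′ end. Most of that peak lay between RRP6 and its downstream neighbour ALG6, since 13.7% of its length was in RRP6.

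**Figure D2:**
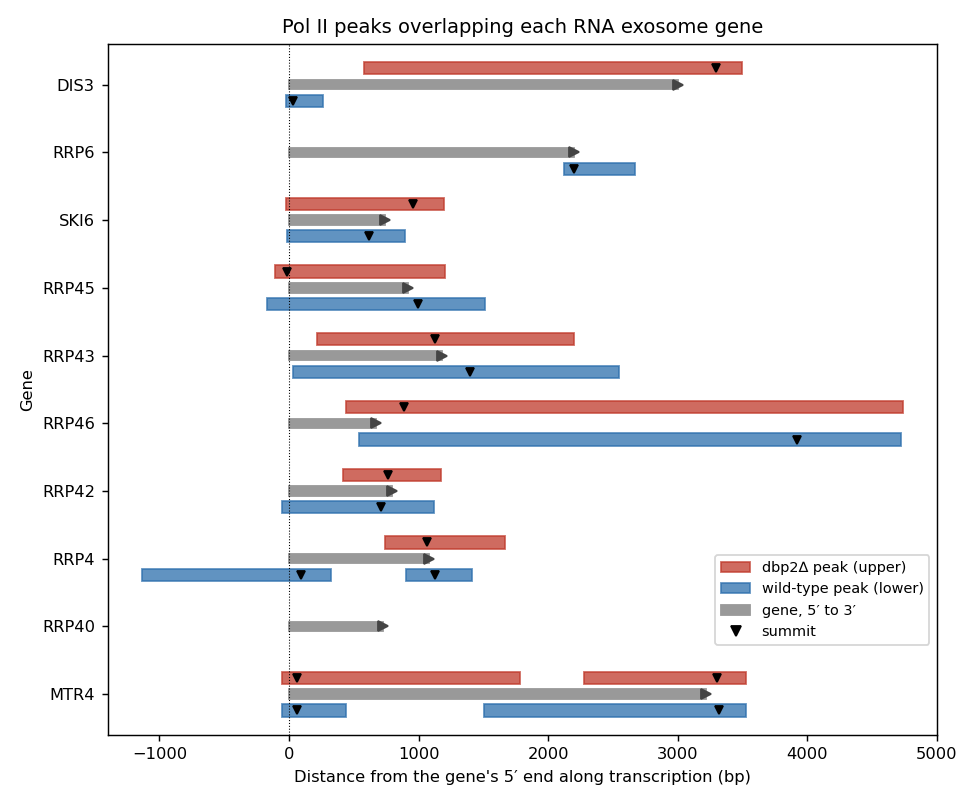
Each row is 1 RNA exosome gene (grey bar, 5′ to 3′), with the dbp2∆ peaks that overlap it drawn above (red) and the wild-type peaks below (blue); black triangles are summits and the x axis is the distance in bp from the gene's 5′ end along transcription. The DIS3 peaks of the strains lie at opposite ends of the gene, the dbp2∆ peaks over RRP42 and RRP43 begin further inside the gene than those of the wild type, and RRP40 has none.

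Of the 5 ring genes, 3 had a peak in dbp2∆ and 4 in the wild type. SKI6, known also as RRP41 (YGR195W, chromosome VII, 888882 to 889622), and RRP45 (YDR280W, chromosome IV, 1020747 to 1021664), whose products pair in the ring, were covered over 100% in both strains. The SKI6 peak measured 1221 bp in dbp2∆ and 912 bp in the wild type. Its edges before the gene were 10 bp apart, while the downstream edge lay 457 bp past the 3′ end in dbp2∆ and 158 bp past it in the wild type. The summit followed the same order, 218 bp past the 3′ end and inside the convergent gene FYV8 in dbp2∆, and 121 bp before the 3′ end in the wild type. The fold enrichment was 1.86 in dbp2∆ and 1.60 in the wild type, each below the median of its own list (2.04 and 1.99).

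At RRP45 the peak was the shorter in dbp2∆, 1313 bp against 1687 bp in the wild type. It ended 285 bp past the 3′ end in dbp2∆ and 599 bp past it in the wild type, where it reached the convergent neighbour PHM6, a phosphate-responsive gene. PHM6 was covered over 0% in dbp2∆ and 81.6% in the wild type. The summit lay 15 bp before the 5′ end in dbp2∆ (fold enrichment 1.58) and 82 bp past the 3′ end, between RRP45 and PHM6, in the wild type (1.94). Neither summit was in RRP45, so neither fold enrichment need be its own.

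RRP43 (YCR035C, chromosome III, 191834 to 193018) carried the highest peak over any exosome gene in either list. The fold enrichment of the RRP43 peak was 3.31 in dbp2∆, above 78.5% of the peaks of that list. In the wild type it was 2.76, above 72.8%. RRP43 was covered over 81.9% in dbp2∆ and 97.0% in the wild type, and the difference lay at its 5′ end. There the peak began 214 bp inside the gene in dbp2∆ and 35 bp inside it in the wild type. The same peaks covered the convergent fatty acid elongase gene ELO2, over 78.4% in dbp2∆ and 100% in the wild type. The summit was in RRP43 in dbp2∆, 53 bp before its 3′ end, and in ELO2 in the wild type, 211 bp past the 3′ end of RRP43.

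RRP42 (YDL111C, chromosome IV, 263313 to 264110) was covered over 48.1% in dbp2∆, just short of the 50% required, by a peak of 760 bp that began 414 bp inside the gene. In the wild type it was covered over 100%, by a peak of 1171 bp that began 53 bp before the gene. The 3′ edges of these peaks were 56 bp apart, 376 bp past the gene in dbp2∆ and 320 bp past it in the wild type, and reached into the convergent gene TRM3 over 6.70% and 5.40% of its length. The summits lay within 47 bp of each other, 36 bp before the 3′ end in dbp2∆ (fold enrichment 2.31) and 83 bp before it in the wild type (2.16). RRP42 thus differed between the lists by its 5′ part. It would count as a gene with a peak in both strains at a threshold of 48.1% or lower, and stayed in the wild type only at 80%.

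RRP46 (YGR095C, chromosome VII, 675671 to 676342) was reached at its 3′ end by a peak that covered all of the convergent valyl-tRNA synthetase gene VAS1. This peak measured 4302 bp in dbp2∆ and 4185 bp in the wild type, and 5.39% and 3.15% of its length lay in RRP46. The covered part of RRP46 was 34.5% in dbp2∆ and 19.6% in the wild type. The summit was in VAS1 in both strains, 220 bp past the 3′ end of RRP46 in dbp2∆ and 3250 bp past it in the wild type. At its other end it reached DRN1, over 20.4% of that gene in dbp2∆ and 19.3% in the wild type. No summit was in RRP46 in either list.

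The cap genes RRP4 and RRP40 encode subunits with RNA-binding domains at the entry of the barrel. RRP4 (YHR069C, chromosome VIII, 233579 to 234658) was covered over 31.1% in dbp2∆ and 46.4% in the wild type. In dbp2∆ 1 peak (232990 to 233914, fold enrichment 2.37) lay over the 3′ end with its summit 17 bp before it. That peak was 925 bp long, against 513 bp for the wild-type peak over the 3′ end (fold enrichment 1.81), whose summit lay 50 bp past it. These peaks reached into the convergent deoxyhypusine synthase gene DYS1, over 26.4% of it in dbp2∆ and 4.47% in the wild type. With all peaks of each list counted, DYS1 was covered over 26.4% in dbp2∆ and 22.3% in the wild type. The divergent gene TRM5, which encodes a tRNA methyltransferase, was covered over 0% in dbp2∆, whereas in the wild type a further peak (234337 to 235793, 1.72) covered 60.9% of it and the first 322 bp of RRP4. All wild-type peaks together covered 75.7% of TRM5. The 5′ peak that RRP4 shared with TRM5 was thus in the wild-type list only.

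RRP40 (YOL142W, chromosome XV, 55558 to 56280) was the only member without any overlapping peak in either list, as were 52.7% of all protein-coding genes. The nearest peak lay 730 bp from it in dbp2∆ and 725 bp in the wild type, over the ends of NOP8 and RIB4.

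MTR4 (YJL050W, chromosome X, 342522 to 345743), which encodes the helicase that feeds RNA to the nuclear exosome, was the one member with a separate peak at each end in both strains. Together they covered 84.5% of the gene in dbp2∆ and 66.9% in the wild type. The 5′ peaks began 55 bp before the gene in dbp2∆ and 50 bp before it in the wild type and had summits 61 and 64 bp into it, with fold enrichments of 1.69 and 1.70. The 3′ peaks ended at the same base, 307 bp past the gene, with summits 81 bp past the 3′ end in dbp2∆ (2.80) and 101 bp past it in the wild type (2.02), and both reached into the tandem neighbour CHM7 over 5.76% of it. What differed was the interior: the 5′ peak was 1836 bp long in dbp2∆ and 489 bp in the wild type, and the 3′ peak 1248 bp and 2024 bp.

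Within their own lists the peaks over the exosome genes ranked from near the bottom to the upper part, and none stood above more than 78.5% of its list. Fold enrichments ran from 1.58 to 3.31 for 9 peaks in dbp2∆ and from 1.32 to 2.76 for 11 peaks in the wild type. Of these, 6 of 9 in dbp2∆ and 4 of 11 in the wild type stood above the median of their list. The pileup at the summits was 150 to 315 fragments in dbp2∆ and 128 to 229 in the wild type. The lists differ in depth and background, so no direction is read between these values.

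**Figure D3:**
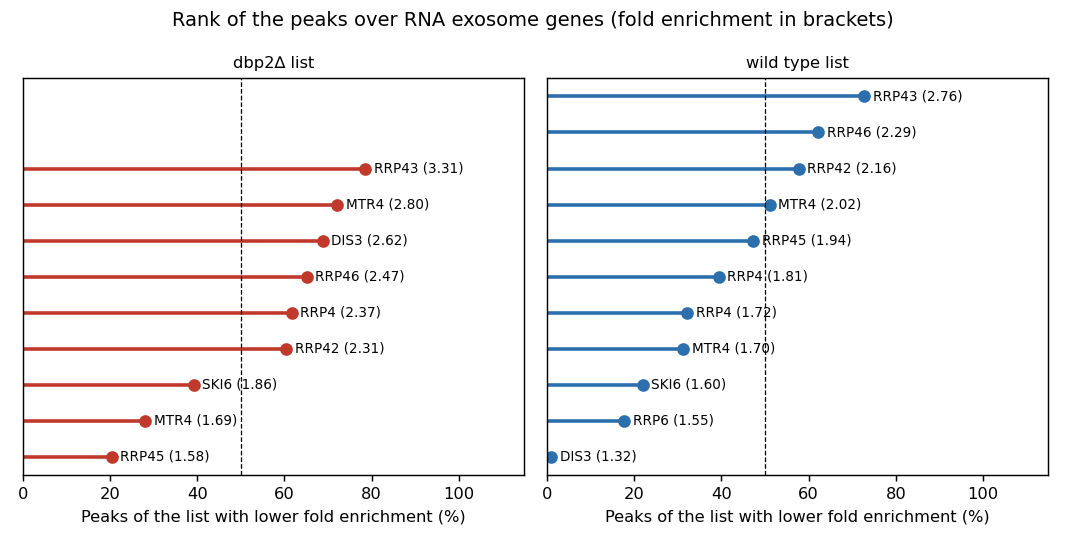
Each line is 1 peak overlapping an RNA exosome gene, in the dbp2∆ list (left, 9 peaks) and the wild-type list (right, 11 peaks); the x axis is the percent of peaks of that list with a lower fold enrichment, the dashed line is 50%, and brackets give the fold enrichment. RRP43 is highest in both lists, and the wild-type DIS3 peak lies at the low end of its list, above 1.04% of peaks.

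Read along the genes, peaks lay mostly over 3′ ends. A peak crossed the 3′ end of 8 of 10 members in dbp2∆ and 8 of 10 in the wild type, against 37.0% and 32.0% of all protein-coding genes. The 5′ end was under a peak in 3 members in dbp2∆ (SKI6, RRP45 and MTR4) and in 6 in the wild type, which were these 3 with DIS3, RRP42 and RRP4. Over all protein-coding genes 21.3% had a peak on the 5′ end in dbp2∆ and 25.0% in the wild type, so fewer covered 5′ ends in dbp2∆ were also seen in the background. The summit lay within 300 bp of the member's 3′ end for 7 of 9 peaks in dbp2∆ and 7 of 11 in the wild type. A summit lay inside 4 members in dbp2∆ and 6 in the wild type, against 14.8% and 16.0% of all protein-coding genes. Over all pairs of a protein-coding gene and a peak on it, the share with the summit that near to the 3′ end was 52.1% in dbp2∆ and 35.6% in the wild type.

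The mean covered share of the first 20% of the 10 genes was 31.3% in dbp2∆ and 59.7% in the wild type. This part was at least 50% covered in 3 members in dbp2∆ and in 6 in the wild type, the additional ones being RRP43, RRP42 and RRP4, against 20.3% and 22.5% of all protein-coding genes. The last 20% of the gene had a mean of 80% in dbp2∆ and 69.8% in the wild type, and the 250 bp past the 3′ end 80% and 76.3%, against 38.4% and 33.1% for all protein-coding genes. The 250 bp before the 5′ end had 7.52% and 22.4%, against 18.9% and 22.1%. All protein-coding genes had a mean of 20.4% and 22.6% over the first 20% and of 32.1% and 27.7% over the last 20%, which is the same order of the strains at either end.

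**Figure D4:**
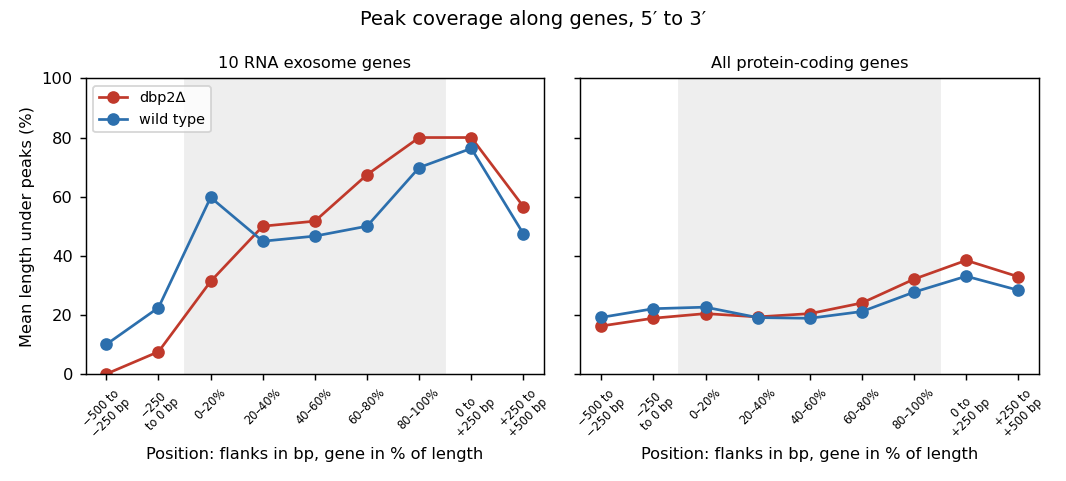
Mean percent of length under Pol II peaks (y axis) in 9 positions along transcription, for the 10 RNA exosome genes (left) and all 6002 protein-coding genes (right), in dbp2∆ (red) and wild type (blue); the shaded part is the gene in steps of 20% of its length and the flanks are steps of 250 bp. For the exosome genes the lines cross after the first 20% of the gene, where they stand at 31.3% in dbp2∆ and 59.7% in the wild type.

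The arrangement of neighbouring genes was near that of the genome. The downstream neighbour is convergent, transcribed towards the member's 3′ end, for 6 of the 10 (SKI6, RRP45, RRP43, RRP46, RRP42 and RRP4), against 51.4% of all protein-coding genes. All 6 had a peak over the 3′ end in both strains, and of the 4 with a tandem neighbour (DIS3, RRP6, RRP40 and MTR4) 2 had one in dbp2∆ and 2 in the wild type. Among all protein-coding genes a peak lay over the 3′ end of 48.1% with a convergent neighbour in dbp2∆ and 36.8% in the wild type, and of 25.2% and 27.1% with a tandem neighbour. The assay does not separate DNA strands, so Pol II of a member and of its convergent neighbour cannot be told apart where a peak spans both.

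The coverage of other genes of RNA decay was counted in the same way. Of 18 listed genes, 5 had a peak in dbp2∆ (27.8%) and 4 in the wild type (22.2%). These counts lie near the shares of all protein-coding genes, 20.6% and 19.9%. Those with one in both strains were NRD1 and NAB3, whose products terminate short non-coding transcripts with Sen1 and pass them to the exosome, and the remaining ring and cap genes MTR3 and CSL4. MPP6, a cofactor of the nuclear exosome, had one in dbp2∆ only, with 50.4% covered against 9.98% in the wild type. NRD1 was covered over 100% in both strains (fold enrichment 11.1 in dbp2∆ and 9.68 in the wild type). Neither summit was in NRD1, so neither fold enrichment need be its own.

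In 5 of these genes, NAB3, CSL4, MTR3, TRF5 and RAI1, the dbp2∆ list had 1 peak and the wild-type list at least 2. NAB3 was covered over 100% by 1 peak in dbp2∆ and over 56.7% by 3 peaks in the wild type. CSL4 was covered over 100% by 1 peak in dbp2∆ and over 53.6% by 2 in the wild type. MTR3 was covered over 100% by 1 peak in dbp2∆ and over 65.3% by 2 in the wild type, all with summits outside the gene. In the other two the covered share was the smaller in dbp2∆, 10.9% against 25.2% in the wild type for TRF5 and 5.58% against 23.3% for RAI1. XRN1 met 2 peaks in dbp2∆ and 3 in the wild type. At least 2 peaks thus met 1 of the 18 genes in dbp2∆ and 6 in the wild type, against 3.15% and 5.11% of all protein-coding genes. The share of all protein-coding genes with 1 peak in dbp2∆ and at least 2 in the wild type was not counted. The 5 are therefore not read as particular to RNA decay genes. The fragment size recorded by the caller, which is also the shortest peak it kept, was 290 bp in dbp2∆ and 260 bp in the wild type, and the part of this setting and of depth in merged peaks was not tested.

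The TRAMP genes PAP2, TRF5, AIR1 and AIR2, whose products add short poly(A) tails to RNA for the exosome, had a peak in neither strain by the 50% rule, nor did SEN1, the Rrp6 partner gene LRP1, the genes of the cytoplasmic exosome cofactors SKI2, SKI3, SKI7 and SKI8, or the 5′ exonuclease genes RAT1 and XRN1 and the Rat1 partner gene RAI1. These 13 of the 18 genes (72.2%) lie near the 76.4% of all protein-coding genes with a peak in neither strain. With MTR3 and CSL4 included, the genes of the 6 ring subunits had a peak for 4 in dbp2∆ and 5 in the wild type. Those of the 3 cap subunits had one for 1 in both. Among all protein-coding genes 20.6% had a peak in dbp2∆ and 19.9% in the wild type.

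Set beside genes of other multi-subunit complexes, 10 of 14 genes of the 20S proteasome had a peak in dbp2∆ and 12 in the wild type, and 7 of 8 genes of the CCT chaperonin in dbp2∆ and 6 in the wild type. The median covered share of the 10 exosome genes was 64.4% in dbp2∆ and 56.7% in the wild type. It was 95.7% and 100% for the proteasome genes, 98.8% and 93.3% for the chaperonin genes, and 0% in both strains for all protein-coding genes. The highest fold enrichment over a gene, among genes met by a peak, had a median of 2.42 in dbp2∆ and 1.94 in the wild type for the exosome genes, and of 2.34 and 2.44 for all protein-coding genes.

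**Figure D5:**
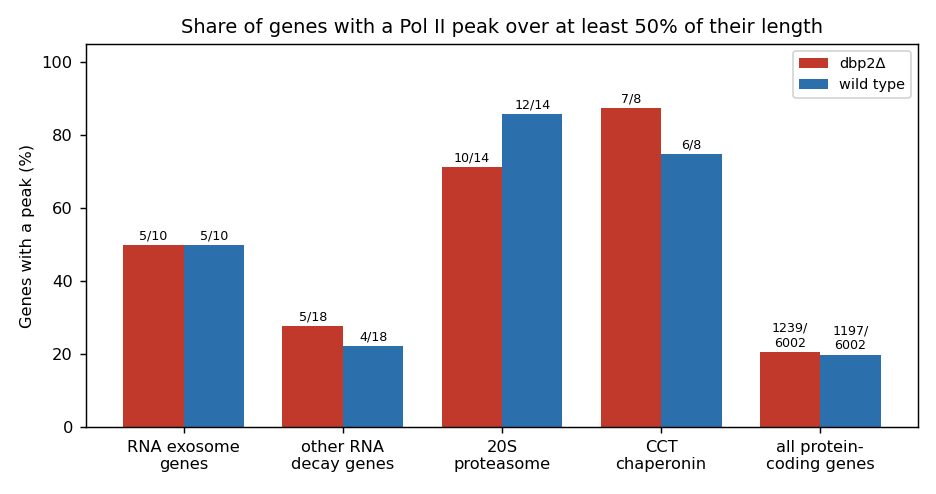
Percent of genes with a Pol II peak over at least 50% of their length (y axis) in dbp2∆ (red) and wild type (blue), with the numbers of genes above the bars, for 4 gene lists and all protein-coding genes. The exosome genes stand at 5 of 10 in both strains, and all protein-coding genes at 1239 and 1197 of 6002.

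The genes nearest the median of the exosome genes were sought by 4 values. These were the covered share in each list and the percentile of the highest fold enrichment among all protein-coding genes in each list. By the sum of the absolute differences from the median of the 10 members, the nearest were YDR210C-D (12.1 percentage points), the mitochondrial ribosomal protein gene MRPL50 (12.5) and RIO2 (12.9), which encodes a kinase of small ribosomal subunit maturation. YDR210C-D was covered over 63.0% in dbp2∆ and 60.8% in the wild type, MRPL50 over 62.9% and 63.8%, and RIO2 over 69.9% and 53.9%. This likeness rests on 2 strains with 1 list each, and it is to the median and not to any single member. No member had a covered share between 48.1% and 80.7% in dbp2∆, or between 46.4% and 66.9% in the wild type.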

How the data were processed

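The files hold 1 peak list per strain. The authors pooled the libraries of a strain and ran MACS 2.1.2 on paired ends at a q-value cutoff of 0.05, per the file headers. Build R64, Trimmomatic 0.36 and Bowtie2 2.3.3.1 are named in the submitters' processing notes, and their settings are not given in the sources used here. The deposited fold enrichment is a ratio to the local background at the summit, the deposited pileup is a coverage signal in fragments, and the deposited −log10 q-values served only as a filter.

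Gene spans came from a RefSeq table of R64 and were taken as coding spans with any introns, since 96.4% of protein-coding lengths are multiples of 3. The strand came from the W or C of the systematic name. Coordinates count from 1. Coverage was computed in Python 3.11.15 with pandas 2.3.3, and the interval code was tested on simulated data. The highest fold enrichment is that of any peak overlapping a gene by at least 1 bp.

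The members and lists were chosen with earlier results of these data known. All 10 members are named, as are genes sharing their peaks, RNA decay genes with a peak, and the 3 genes nearest the members' median. The proteasome and chaperonin genes are given by count only. RNA decay genes without a peak were named after their values were seen, as were the counts over gene ends, positions along genes and neighbours. A planned search for promoter motifs was not run. Alternatives are given in the closing section. Because libraries were pooled before peak calling, no p-value was computed for any difference.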

Additional observations from a re-analysis of the deposited data

How the results depend on the processing

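No paired analysis was possible because the lists hold pooled libraries, and for the same reason no replicate could be left out. When any overlap counted, 8 members had a peak in dbp2∆ and 9 in the wild type, 0 in dbp2∆ only and 1 (RRP6) in the wild type only, and the other RNA decay genes had 14 and 14 of 18. When at least 80% of the gene had to be covered, 2 members (DIS3 and MTR4) had a peak in dbp2∆ only and 1 (RRP42) in the wild type only. With peaks under 2-fold enrichment left out, 2 members had a peak in dbp2∆ (DIS3 and RRP43) and 3 in the wild type (RRP43, RRP42 and MTR4), 2 in the wild type only (RRP42 and MTR4), and of the other RNA decay genes 4 had one in dbp2∆ and 2 in the wild type. The 3′ end was then under a peak in 6 members in dbp2∆ and 4 in the wild type, and the 5′ end in 0 in dbp2∆ and 1 in the wild type, an alternative added after the data were seen. When only peaks with their summit in the gene were used, 2 members had a peak in dbp2∆ (RRP43 and MTR4) and 2 in the wild type (SKI6 and RRP42), so 2 were in dbp2∆ only and 2 in the wild type only. The causes of these differences were not tested. Any overlap held for 42.4% of all protein-coding genes in dbp2∆ and 38.8% in the wild type. For the other alternatives no share of all protein-coding genes is given, so these counts are not read as particular to the members. Peaks under 2-fold made up 48.2% of the dbp2∆ list and 50.4% of the wild-type list. DIS3 was in dbp2∆ only, and RRP42 in the wild type only, with peaks of at least 2-fold enrichment, of −log10 q of at least 5 and of at least 290 bp; the summit filter and any overlap took DIS3 out, and any overlap took RRP42 out. Of the 20 covered shares, 8 moved by over 1.5 times with peaks of at least 2-fold enrichment, 2 at −log10 q of at least 5 and 1 with 100 bp added at both gene ends. With the 2-fold filter SKI6 and RRP45 stood at 0% in both strains, and MTR4 at 29.2% in dbp2∆ and 53.3% in the wild type.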
